A study of Saccharomyces cerevisiae with 48 samples.

Results

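The transcripts described here encode the hexose-phosphorylating enzymes of budding yeast, Saccharomyces cerevisiae: hexokinase 1 (HXK1, YFR053C), hexokinase 2 (HXK2, YGL253W), glucokinase 1 (GLK1, YCL040W) and the glucokinase-like EMI2 (YDR516C). They were taken by systematic identifier from a table of log2 RPKM (reads per kilobase of gene, scaled to the depth of the library) that lists 6713 genes, and all 4 of 4 were present in every library. RNA was sequenced from 3 strains, each a single isolate: a West African strain (WA, labelled NCY3290), a mosaic strain isolated from papaya (PAP, labelled Y7568) and a mosaic strain from Illinois (IL01). Each strain was grown either in an anaerobic chamber or in aerated flasks, in rich glucose medium (YPD) that held 0.8% 1-butanol, 1% isobutanol, ethanol or no added alcohol. The ethanol was 3% in anaerobic and 4% in aerobic cultures, so that in ethanol the absence of oxygen and the lower dose cannot be told apart. Cells went through 3 generations in their medium and were collected in log phase, in duplicate on different days, which gave 24 groups of 2 libraries and 48 libraries in all. WA in anaerobic ethanol was kept apart from every comparison that pools the strains, and its values are given on their own.

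Glucose that enters a yeast cell is trapped by phosphorylation to glucose-6-phosphate, which feeds glycolysis, the pentose phosphate pathway and the synthesis of trehalose and glycogen. Hexokinases also phosphorylate fructose, whereas glucokinases act on glucose. HXK1 and HXK2 are a pair of paralogs, and so are GLK1 and EMI2. HXK2 is the main enzyme of cells growing on abundant glucose, and its protein also takes part in glucose repression, the shut-off of genes for other carbon sources, together with the repressor Mig1. HXK1 and GLK1 are known to be repressed by glucose and to be expressed on poorer carbon sources or under stress. EMI2 was first described in early meiosis and its product resembles glucokinase.

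The 4 genes lie on different chromosomes of the S288c R64 reference, the build to which the reads were mapped, and each is a single coding stretch without an intron. HXK1 lies on the minus strand of chromosome VI (253592 to 255049, 1458 bases), HXK2 on the plus strand of chromosome VII (23935 to 25395, 1461 bases), GLK1 on the plus strand of chromosome III (50838 to 52340, 1503 bases) and EMI2 on the minus strand of chromosome IV (1474974 to 1476476, 1503 bases). Aligned end to end, HXK1 and HXK2 were identical at 1135 of 1458 bases (77.85%), and GLK1 and EMI2 at 1034 of 1499 bases (68.98%). Because reads were 100 bases long, the closest 100-base windows of each pair show how well a read could be told apart. The capitals mark the bases that differ within a pair. The HXK1 and HXK2 windows differ at 11 bases:
HXK1 (chrVI:254301-254400, minus strand): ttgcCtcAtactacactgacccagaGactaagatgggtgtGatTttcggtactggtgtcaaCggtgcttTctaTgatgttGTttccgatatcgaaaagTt
HXK2 (chrVII:24584-24683, plus strand): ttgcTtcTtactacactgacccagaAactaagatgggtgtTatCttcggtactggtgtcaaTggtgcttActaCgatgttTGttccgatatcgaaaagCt
The closest GLK1 and EMI2 windows differ at 18 bases:
GLK1 (chrIII:52089-52188, plus strand): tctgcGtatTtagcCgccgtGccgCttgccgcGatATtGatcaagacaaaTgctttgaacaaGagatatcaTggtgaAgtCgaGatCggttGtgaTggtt
EMI2 (chrIV:1475126-1475225, minus strand): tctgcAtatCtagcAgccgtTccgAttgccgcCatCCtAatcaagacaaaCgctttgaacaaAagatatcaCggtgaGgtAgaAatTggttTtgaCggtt
No 100-base window was shared with 5 or fewer mismatches by any pair of the 4 genes in this reference. The alleles of the 3 strains were not analysed here. A short dubious reading frame, YCL042W, overlaps GLK1 by 106 bases on the same strand, and its median was 0.583 RPKM in anaerobic and 0.295 RPKM in aerobic libraries.

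The reads behind the RPKM scaling numbered 7480286 to 13938540 a library, with 55.57 to 84.35% of them in genes. The lowest shares were in replicate 2 of PAP in anaerobic YPD (55.6%) and replicate 1 of WA in anaerobic 1-butanol (59.0%), and the aerobic libraries were all at 69.8% or above. Correlations between the log2 RPKM of replicates ran over 0.933 to 0.989. Every member value corresponded to a whole number of reads within the tolerance stated with the methods. RPKM is a share of the reads of a library, so fewer transcripts of a gene and more RNA of other genes cannot be told apart.

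Across the 48 libraries HXK2 was the steady member and HXK1 the variable one. HXK1 spanned 1.50 RPKM (18 reads, replicate 1 of IL01 in aerobic 1-butanol) to 2516 RPKM (replicate 1 of IL01 in anaerobic 1-butanol). HXK2 spanned 193 to 1407 RPKM. GLK1 was at 78.8 RPKM or above in each anaerobic library and at 55.6 RPKM or below in each aerobic library, so the oxygen conditions did not overlap over all strains and media. EMI2 likewise did not overlap, with 62.6 RPKM as the lowest anaerobic and 35.3 RPKM as the highest aerobic value. HXK1 did overlap over all media, at 95.6 RPKM in the lowest anaerobic library (PAP in YPD) against 176 RPKM in the highest aerobic library (IL01 in ethanol). When the 24 groups were ordered by mean level, 11 of the 23 neighbouring pairs had replicates that did not overlap for HXK1, 11 for EMI2, 4 for GLK1 and 3 for HXK2; the other neighbours in each order were not separated by their replicates. Anaerobic groups filled 12 of the top 12 places for GLK1, 12 for EMI2, 11 for HXK1 and 4 for HXK2. The separation by oxygen and these orders were not counted for other genes, so whether they are unusual cannot be told.

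**Figure D1:**
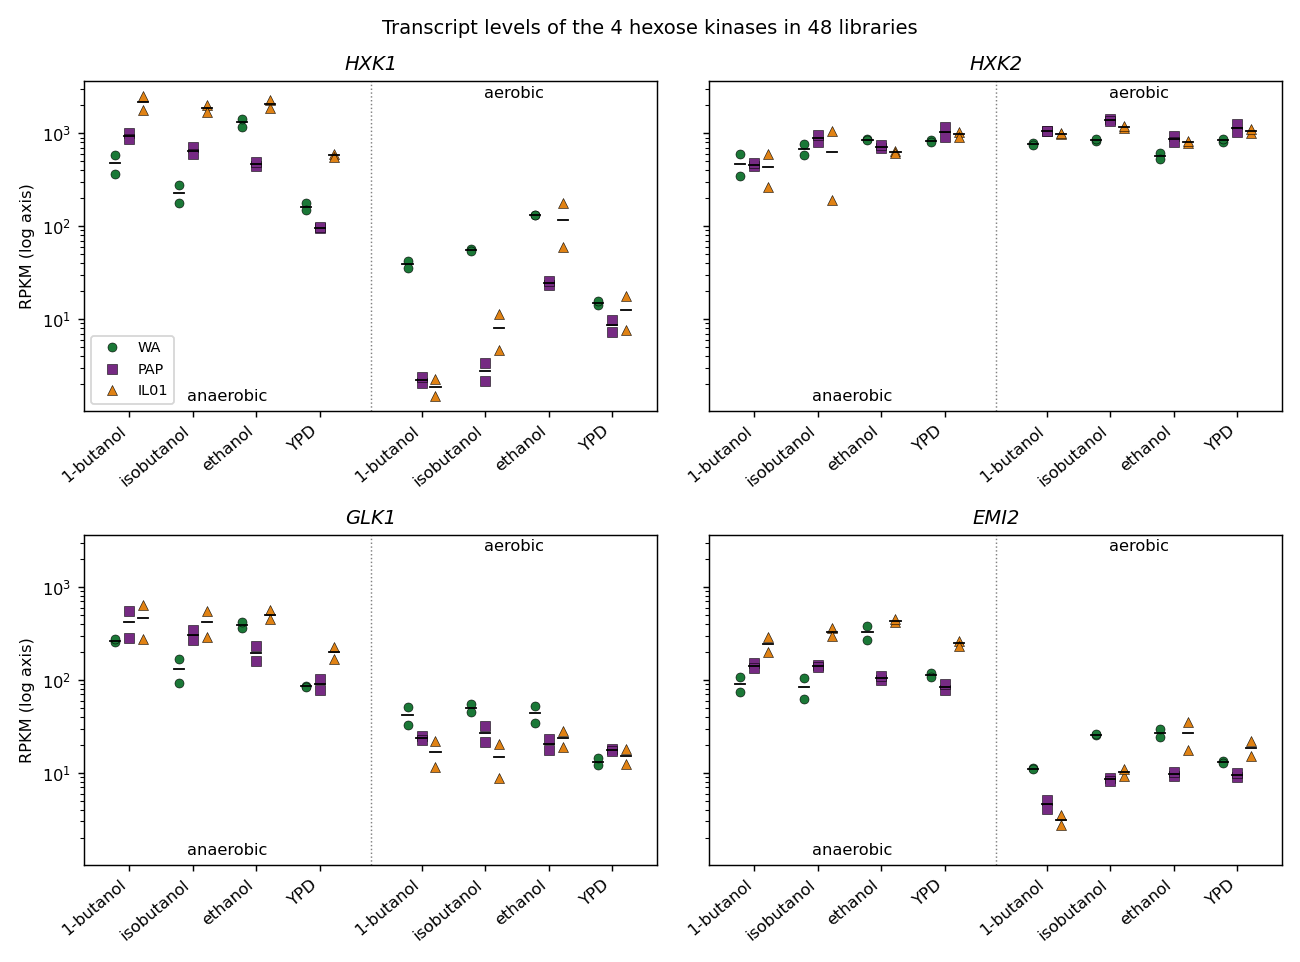
RPKM of each gene on a log axis (vertical) in every library, by medium, with anaerobic libraries left and aerobic libraries right of the dotted line; symbols mark the strains and dashes the mean of each group of 2. HXK1, GLK1 and EMI2 stand higher in anaerobic than in aerobic libraries of the same medium, while HXK2 spans only 193 to 1407 RPKM over all of them.

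The first comparison asked how each gene differed without oxygen. As means of strains, HXK1, GLK1 and EMI2 rose in anaerobic cultures in all 4 media. HXK2 fell in 1-butanol and slightly in ethanol, and was not called in isobutanol or YPD. HXK1 in 1-butanol was at 368 and 584 (WA), 1001 and 872 (PAP) and 2516 and 1788 (IL01) RPKM without oxygen, against 42.1 and 35.5 (WA), 2.08 and 2.40 (PAP) and 1.50 and 2.26 (IL01) RPKM with oxygen (values are replicates 1 and 2). In isobutanol it was at 176 and 275 (WA), 707 and 597 (PAP) and 2015 and 1694 (IL01) RPKM anaerobically and 56.9 and 54.7 (WA), 3.36 and 2.16 (PAP) and 4.65 and 11.4 (IL01) RPKM aerobically. In both butanols the groups of every strain were far apart, and the gap was smallest in WA, whose aerobic levels were the highest of the 3 strains. In ethanol HXK1 stood at 443 and 486 (PAP) and 1853 and 2285 (IL01) RPKM without oxygen and at 23.3 and 26.04 (PAP) and 60.3 and 176 (IL01) RPKM with oxygen. In YPD it was at 176 and 149.6 (WA), 95.6 and 97.05 (PAP) and 595 and 560.4 (IL01) RPKM anaerobically and at 14.2 and 15.9 (WA), 9.80 and 7.36 (PAP) and 7.69 and 17.6 (IL01) RPKM aerobically. The 2 oxygen conditions did not overlap in any of the 4 media. As a mean of strains, HXK1 was higher without oxygen by 7.49 (SE 0.15, adjusted p = 6.20e-30) on the log2 scale in 1-butanol, 5.96 (SE 0.22, adjusted p = 4.04e-09) in isobutanol, 4.28 (SE 0.18, adjusted p = 1.41e-07) in ethanol and 4.19 (SE 0.19, adjusted p = 1.46e-08) in YPD (limma, Benjamini-Hochberg adjustment over all genes tested, threshold 1%). By absolute change it ranked 23 of 5712, 36 of 5715, 93 of 5685 and 96 of 5630 genes in those media.

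The share of all genes called in these fits was large, at 58.7% in 1-butanol, 48.8% in isobutanol, 55.3% in ethanol and 39.3% in YPD. Of the 4 members, 4 were called in 1-butanol, 3 in isobutanol, 4 in ethanol and 3 in YPD. A call by itself therefore says little of the members, and their sizes and ranks carry the description. The median gene was also higher without oxygen, by 0.20 in 1-butanol, 0.20 in isobutanol and 0.27 in YPD on the log2 scale, and lay at -0.00105 in ethanol. Relative to the median gene, HXK1 was 7.29, 5.76, 4.28 and 3.92 higher in 1-butanol, isobutanol, ethanol and YPD. By absolute change GLK1 ranked 137, 179, 127 and 210 and EMI2 83, 137, 132 and 168 in these media. HXK2 ranked only 1653 of 5712 genes in 1-butanol, 2112 of 5715 in isobutanol, 3795 of 5685 in ethanol and 5142 of 5630 in YPD. In ethanol 66.75% of genes changed at least as much as HXK2.

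GLK1 in 1-butanol was at 257 and 274 (WA), 552 and 285 (PAP) and 641 and 279 (IL01) RPKM without oxygen and at 51.4 and 32.6 (WA), 24.9 and 22.6 (PAP) and 21.9 and 11.6 (IL01) RPKM with oxygen. In YPD it was at 87.1 and 83.2 (WA), 78.8 and 102 (PAP) and 227 and 168 (IL01) RPKM without oxygen, against 12.05 and 14.4 (WA), 18.00 and 17.1 (PAP) and 18.1 and 12.6 (IL01) RPKM with oxygen. Replicates of GLK1 differed more than those of the other members, with a median ratio of the higher to the lower replicate of 1.39, yet the oxygen conditions stayed apart in every medium. GLK1 rose by 3.83 (SE 0.15, adjusted p = 2.91e-21) in 1-butanol, 3.26 (SE 0.21, adjusted p = 2.67e-07) in isobutanol, 3.83 (SE 0.14, adjusted p = 4.87e-08) in ethanol and 2.91 (SE 0.16, adjusted p = 8.42e-08) in YPD (log2, limma). In isobutanol its libraries spanned 92.9 to 553 RPKM without oxygen and 8.72 to 55.6 RPKM with oxygen. By strain the GLK1 change in isobutanol was 1.33 in WA (limma, adjusted p = 0.0235, not called), 3.53 in PAP and 4.91 in IL01. In ethanol, over PAP and IL01, they spanned 158 to 562 RPKM anaerobically and 17.8 to 28.1 RPKM aerobically.

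EMI2, the paralog of GLK1, had a like pattern at a lower anaerobic level in 1-butanol, with 74.00 and 107 (WA), 151 and 133 (PAP) and 291 and 197 (IL01) RPKM without oxygen and 11.2 and 10.9 (WA), 5.15 and 4.12 (PAP) and 2.74 and 3.48 (IL01) RPKM with oxygen. In YPD it was at 117 and 108 (WA), 78.4 and 89.7 (PAP) and 265 and 234 (IL01) RPKM anaerobically and at 13.5 and 12.8 (WA), 9.03 and 10.1 (PAP) and 15.2 and 21.96 (IL01) RPKM aerobically. IL01 had the highest anaerobic EMI2 level of the 3 strains in both of these media. EMI2 rose by 4.74 (SE 0.16, adjusted p = 1.02e-23) in 1-butanol, 3.58 (SE 0.15, adjusted p = 9.16e-09) in isobutanol, 3.77 (SE 0.13, adjusted p = 3.80e-08) in ethanol and 3.33 (SE 0.14, adjusted p = 8.93e-09) in YPD (log2, limma). Its libraries in isobutanol spanned 62.6 to 366 RPKM without oxygen and 8.21 to 25.9 RPKM with oxygen. Over PAP and IL01 in ethanol they spanned 101 to 448 RPKM anaerobically and 9.36 to 35.3 RPKM aerobically.

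HXK2 behaved differently. In 1-butanol it was at 346 and 595 (WA), 442 and 476 (PAP) and 268 and 592 (IL01) RPKM without oxygen, against 779.6 and 749.7 (WA), 1063 and 1066 (PAP) and 976 and 998 (IL01) RPKM with oxygen, and no anaerobic library reached the lowest aerobic one. The log2 change was -1.09 (SE 0.15, adjusted p = 1.20e-07). In isobutanol HXK2 was at 580.5 and 759 (WA), 815 and 951 (PAP) and 193 and 1068 (IL01) RPKM without oxygen and 835 and 878 (WA), 1407 and 1342 (PAP) and 1139 and 1204 (IL01) RPKM with oxygen. The anaerobic IL01 replicates in isobutanol lay 5.53-fold apart, the widest replicate gap of any member, and the change of -0.79 (95% interval -1.34 to -0.24, adjusted p = 0.0172) was not called. Without replicate 1 of IL01 the change was -0.43 and without replicate 2 it was -1.15, so its size turned on these libraries. Either fit leaves 1 library in that group, so the spread of its replicates drops out of the error and no call is read from it. In ethanol HXK2 was at 689.7 and 743 (PAP) and 651 and 606 (IL01) RPKM without oxygen, against 926 and 806 (PAP) and 795 and 819 (IL01) RPKM with oxygen. That change of -0.32 (SE 0.07, adjusted p = 0.00489) passed the threshold but was lost in 10 of 19 alternatives (adjusted p over them 0.000294 to 0.879), and with WA included it was -0.01. In YPD the gene was at 855 and 814 (WA), 1158 and 911 (PAP) and 1029.9 and 919.9 (IL01) RPKM without oxygen and 811 and 867 (WA), 1244 and 1036 (PAP) and 1013 and 1120.2 (IL01) RPKM with oxygen, a change of -0.09 (95% interval -0.33 to 0.14, adjusted p = 0.471). That value turned to 0.08 under quantile normalization, and relative to the median gene it was -0.36.

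**Figure D2:**
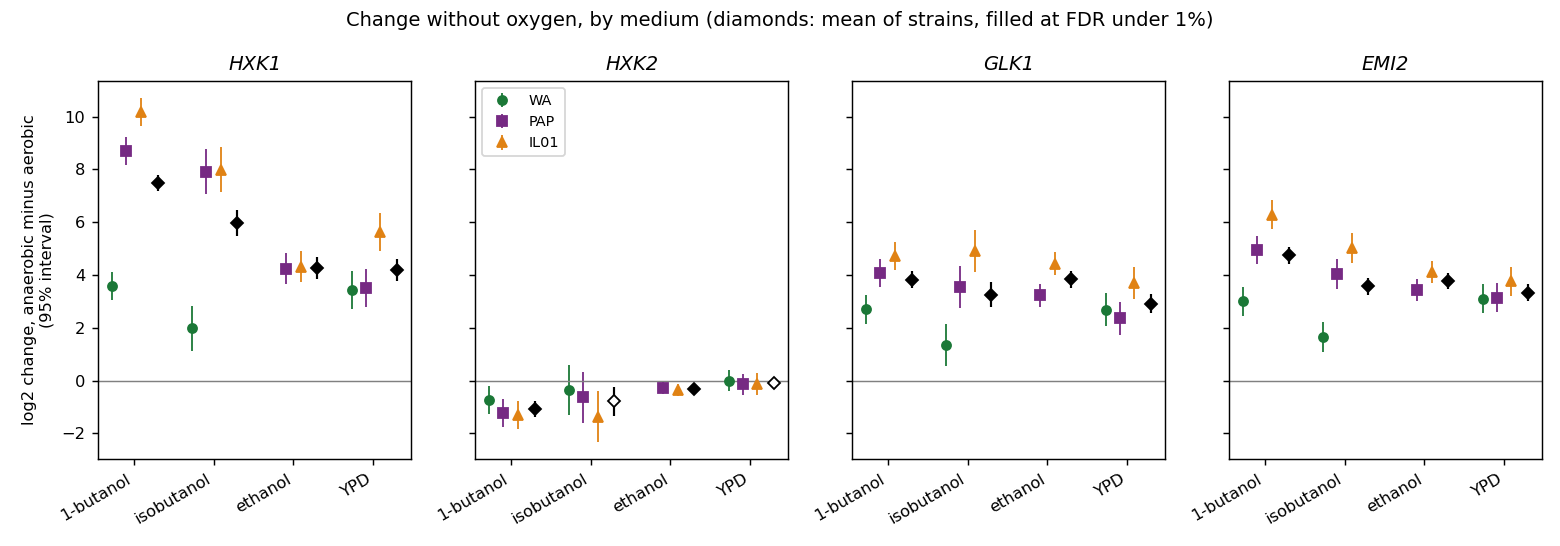
Log2 change, anaerobic minus aerobic (vertical), of each gene in each medium (horizontal), with 95% intervals, for each strain (coloured) and for the mean of strains (black diamonds, filled where the false discovery rate was under 1%). HXK1, GLK1 and EMI2 lie above 0 in every strain and medium shown, and HXK2 lies below 0 in the means, from -0.09 in YPD to -1.09 in 1-butanol.

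The replicate gap of IL01 was not particular to HXK2, but not every gene shared it. In anaerobic isobutanol, replicates 1 and 2 of IL01 had 193 and 1068 RPKM of HXK2, 1712 and 56.3 RPKM of HSP26 (a small heat shock protein) and 257 and 12.6 RPKM of HXT6 (a high-affinity hexose transporter). In anaerobic 1-butanol the same strain had 268 and 592 RPKM of HXK2, 562 and 149 RPKM of HSP26 and 280 and 56.7 RPKM of HXT6. HXT6 and HXT7 are nearly identical genes, so reads could be split between them and values of either are uncertain. In both media the library with less HXK2 had more HSP26 and more HXT6. HSP12 went the same way, at 167 and 3.92 RPKM in isobutanol and 40.3 and 5.19 RPKM in 1-butanol. SUC2 hardly differed, at 131 and 152 RPKM in isobutanol and 135.4 and 134.5 RPKM in 1-butanol. MTH1 was at 35.1 and 41.0 RPKM in isobutanol and at 49.8 and 33.5 RPKM in 1-butanol. The part of these genes in the HXK2 result was not tested.

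The 4 transcripts were also compared as shares of their sum, a measure that does not depend on how a library was scaled. The summed level was 2182 ± 966 RPKM without oxygen and 987 ± 109.6 RPKM with oxygen in 1-butanol (SD, n = 6). It was 2109.9 ± 968 RPKM anaerobically and 1202 ± 193 RPKM aerobically in isobutanol. It was 1499.9 ± 403 RPKM anaerobically and 1056 ± 159.8 RPKM aerobically in YPD. HXK2 made up 71.1% or more of the sum in each aerobic library, with a median of 95.4%, and 82.1% or less in each anaerobic library, with a median of 39.4%. Its share was 24.5% ± 10.9 without oxygen and 94.8% ± 4.32 with oxygen in 1-butanol (SD, n = 6 each). It was 41.5% ± 20.8 anaerobically and 93.8% ± 5.51 aerobically in isobutanol, and 65.9% ± 14.01 anaerobically and 96.03% ± 0.783 aerobically in YPD. The HXK1 share was 49.8% ± 13.1 without oxygen and 1.64% ± 2.24 with oxygen in 1-butanol. The HXK1 share was 36.8% ± 17.6 anaerobically and 2.17% ± 2.71 aerobically in isobutanol, and 16.7% ± 9.94 anaerobically and 1.18% ± 0.505 aerobically in YPD. The GLK1 share was 18.5% ± 5.89 without oxygen and 2.90% ± 1.69 with oxygen in 1-butanol, and that of EMI2 was 7.21% ± 0.386 without oxygen and 0.674% ± 0.482 with oxygen. In each of these 3 media all 4 shares differed with oxygen (two-sided exact permutation test within strain, p = 0.00926 for each of the 12 tests, the smallest these designs allow, adjusted p = 0.0176 over 40 share tests). In ethanol, over PAP and IL01, the HXK2 share was 32.9% ± 17.98 without oxygen and 88.6% ± 7.84 with oxygen (n = 4 each), and the HXK1 share 44.1% ± 14.98 anaerobically and 7.19% ± 6.57 aerobically. That design cannot go below an exact permutation p of 0.0556, which each of the 4 shares reached, so the ethanol shares cannot pass 0.05. The shares of a library are parts of a whole, so the tests of the 4 shares depend on each other. In YPD the HXK2 share was lower without oxygen although the change in its level, -0.09, was not called (limma, adjusted p = 0.471).

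**Figure D3:**
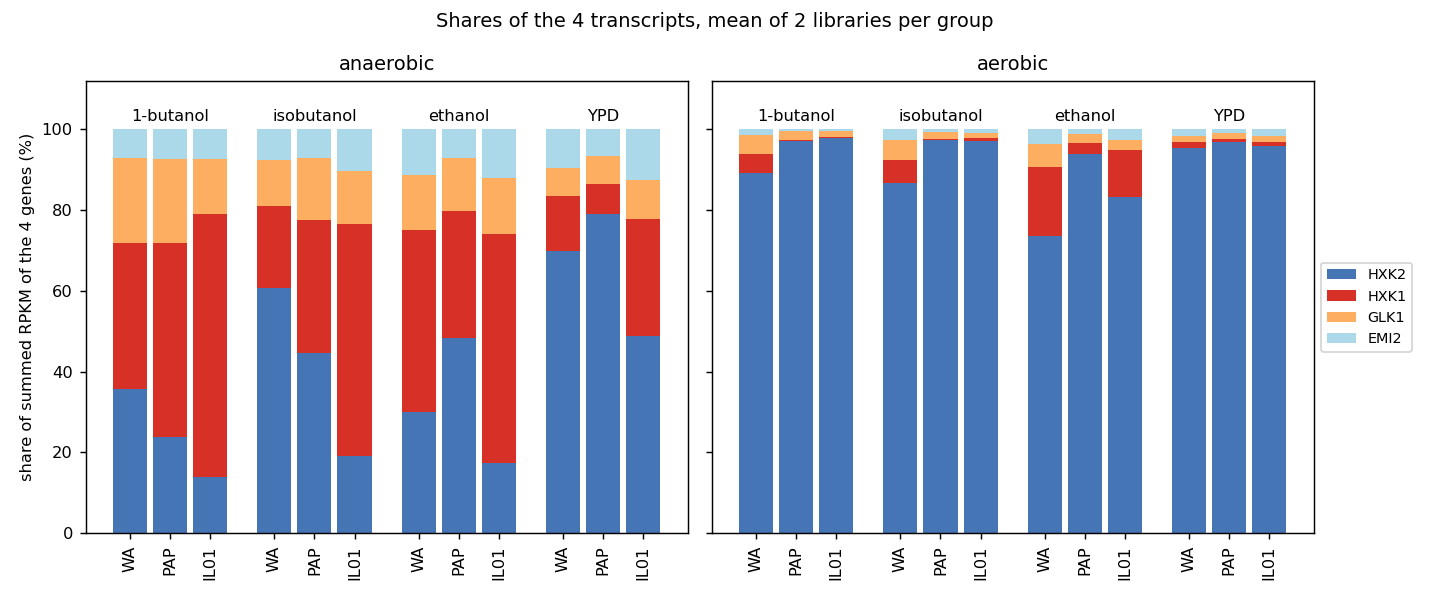
Share of each gene in the summed RPKM of the 4 transcripts (vertical, percent), stacked from 0, as the mean of 2 libraries for each strain, medium and oxygen condition. HXK2 fills most of each aerobic bar, and in 1-butanol its mean over strains is 24.5% without oxygen and 94.8% with oxygen.

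The next comparison set each alcohol against YPD in aerobic cultures. Aerobic ethanol came with more HXK1 and less HXK2, whereas 1-butanol came with less EMI2. In ethanol HXK1 was at 131 and 133 (WA), 23.3 and 26.04 (PAP) and 60.3 and 176 (IL01) RPKM, against 14.2 and 15.9 (WA), 9.80 and 7.36 (PAP) and 7.69 and 17.6 (IL01) RPKM in YPD, and the 6 ethanol libraries lay above the 6 YPD libraries. HXK1 rose by 2.61 (SE 0.24, adjusted p = 9.80e-05) on the log2 scale. HXK2 was at 610.5 and 528 (WA), 926 and 806 (PAP) and 795 and 819 (IL01) RPKM in ethanol and at 811 and 867 (WA), 1244 and 1036 (PAP) and 1013 and 1120.2 (IL01) RPKM in YPD, with a log2 change of -0.45 (SE 0.08, adjusted p = 0.00428); this call was lost in 9 of 23 alternatives (adjusted p over them 0.000986 to 0.113). GLK1 had a log2 change of 0.84 (95% interval 0.45 to 1.23, adjusted p = 0.0101) and EMI2 of 0.51 (95% interval 0.16 to 0.86, adjusted p = 0.0521), neither past the threshold. GLK1 was called in 8 and EMI2 in 2 of 23 alternatives, GLK1 with an adjusted p of 0.00563 without the replicate block and 0.00265 with a block per strain. These 2 of 4 members called compare with 6.91% of 5619 genes, and the median gene was 0.22 higher. The shares moved in the same sense: HXK1 made up 10.5% ± 7.24 of the sum in ethanol and 1.18% ± 0.505 in YPD, and HXK2 83.6% ± 9.96 in ethanol and 96.03% ± 0.783 in YPD (exact permutation test, p = 0.00926, adjusted p = 0.0176 for each, n = 6).

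In aerobic 1-butanol EMI2 was at 11.2 and 10.9 (WA), 5.15 and 4.12 (PAP) and 2.74 and 3.48 (IL01) RPKM, against 13.5 and 12.8 (WA), 9.03 and 10.1 (PAP) and 15.2 and 21.96 (IL01) RPKM in YPD. It fell, with a log2 change of -1.29 (SE 0.16, adjusted p = 0.000755) and per-strain values of -0.25 in WA (95% interval -0.89 to 0.39), -1.05 in PAP (95% interval -1.69 to -0.41) and -2.56 in IL01 (95% interval -3.20 to -1.92). HXK1 changed in opposite directions by strain. In 1-butanol it was at 42.1 and 35.5 (WA), 2.08 and 2.40 (PAP) and 1.50 and 2.26 (IL01) RPKM, above the YPD level of WA and below those of PAP and IL01. The PAP and IL01 libraries held only 18 to 46 reads of HXK1 there. Of the HXK1 changes by strain only that of IL01 passed the threshold (adjusted p = 0.00553, limma). The adjusted p was 0.0607 in WA and 0.0226 in PAP, and the joint test over strains, given below, was not called. The mean change of -1.07 (SE 0.22, adjusted p = 0.00945) passed the threshold, but the strains went opposite ways, with 1.37 in WA (95% interval 0.49 to 2.24), -1.93 in PAP (95% interval -2.80 to -1.05) and -2.66 in IL01 (95% interval -3.54 to -1.78), and the call was lost in 13 of 23 alternatives (adjusted p over them 0.000194 to 0.0386). HXK2 had a log2 change of -0.11 (95% interval -0.26 to 0.03, adjusted p = 0.241) and GLK1 of 0.72 (95% interval 0.34 to 1.10, adjusted p = 0.0155), and GLK1 was called in 3 of 23 alternatives, a replicate block per strain among them (adjusted p = 0.00196). Of all 5582 genes, 10.6% were called, and the median gene was 0.22 higher.

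Aerobic isobutanol gave no member past the threshold, against 10.4% of 5595 genes, with a median gene 0.18 higher. HXK1 again stood apart by strain, at 56.9 and 54.7 (WA), 3.36 and 2.16 (PAP) and 4.65 and 11.4 (IL01) RPKM in isobutanol, which gave 1.89 in WA (95% interval 0.83 to 2.96), -1.66 in PAP (95% interval -2.72 to -0.59) and -0.68 in IL01 (95% interval -1.74 to 0.39) against YPD. WA lay above and PAP below its own YPD level, and the mean of -0.15 (95% interval -0.76 to 0.47, adjusted p = 0.745) spans both. No strain passed the threshold for HXK1 (limma, adjusted p = 0.0439 in WA, 0.0975 in PAP and 0.477 in IL01). The joint test over strains was not called either. The other means were 0.15 (95% interval -0.01 to 0.30, adjusted p = 0.166) for HXK2, 0.77 (95% interval 0.35 to 1.19, adjusted p = 0.0172) for GLK1 and -0.01 (95% interval -0.33 to 0.30, adjusted p = 0.956) for EMI2. GLK1 was called in 5 of 23 alternatives, a replicate block per strain among them (adjusted p = 0.0052). WA held the largest GLK1 value, 1.92, beside 0.58 in PAP and -0.17 in IL01.

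Without oxygen the alcohols came with more HXK1 and GLK1 in every pooled comparison. In anaerobic 1-butanol HXK1 rose by 2.22 (SE 0.18, adjusted p = 3.54e-13) and GLK1 by 1.63 (SE 0.18, adjusted p = 1.49e-09), while HXK2 fell, with a change of -1.11 (SE 0.20, adjusted p = 1.87e-05), and EMI2 had a log2 change of 0.12 (95% interval -0.21 to 0.46, adjusted p = 0.586) relative to anaerobic YPD. HXK1 was at 368 to 2516 RPKM in 1-butanol and at 95.6 to 595 RPKM in YPD over the 6 libraries of each, so the ranges overlapped between strains although each strain lay higher in 1-butanol. HXK2 was at 268 to 595 RPKM in 1-butanol, below its 814 to 1158 RPKM in YPD. The 3 of 4 members called compare with 27.3% of 5682 genes (median gene 0.17 higher).

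In anaerobic isobutanol HXK1 rose by 1.62 (SE 0.16, adjusted p = 7.83e-06) and GLK1 by 1.12 (SE 0.20, adjusted p = 0.000928). By strain the HXK1 difference was 2.75 in PAP (95% interval 2.15 to 3.35), 1.68 in IL01 (95% interval 1.08 to 2.28) and 0.44 in WA (95% interval -0.16 to 1.04), smallest in WA. That of GLK1 was 1.75 in PAP (limma, adjusted p = 0.00424), 1.04 in IL01 (0.0608) and 0.56 in WA (0.546), past the threshold in PAP only. The pooled GLK1 call was lost under quantile normalization (adjusted p = 0.0131) and with libraries shifted to 1 median (0.0145). HXK2 had a log2 change of -0.55 (95% interval -1.18 to 0.08, adjusted p = 0.179). It was -0.14 without replicate 1 of IL01 and -0.96 without its replicate 2, so its size again turned on these libraries. EMI2 had a log2 change of 0.23 (95% interval -0.11 to 0.56, adjusted p = 0.293). In this fit 13.9% of 5694 genes were called, and the median gene was 0.11 higher. In anaerobic ethanol, over PAP and IL01, HXK1 rose by 2.05 (SE 0.12, adjusted p = 2.18e-06) and GLK1 by 1.23 (SE 0.16, adjusted p = 0.000733), against 3.7% of 5628 genes called. HXK2 had a log2 change of -0.58 (95% interval -0.84 to -0.31, adjusted p = 0.0139) and EMI2 of 0.56 (95% interval 0.28 to 0.84, adjusted p = 0.0202), neither past the threshold. With a replicate block per strain both passed it (adjusted p = 0.00336 for HXK2 and 0.00786 for EMI2).

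**Figure D4:**
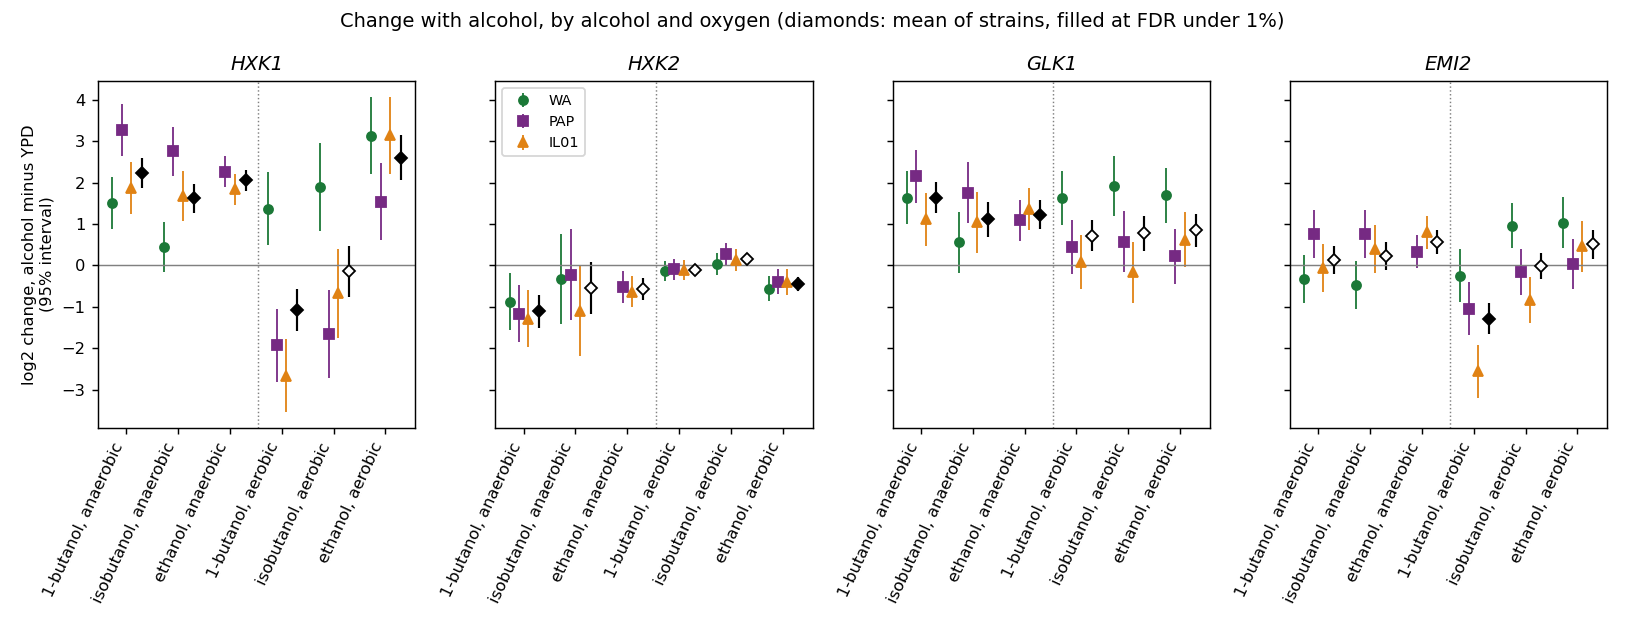
Log2 change, alcohol minus YPD (vertical), of each gene with each alcohol (horizontal), anaerobic comparisons left of the dotted line and aerobic ones right of it, with 95% intervals, for each strain (coloured) and for the mean of strains (black diamonds, filled where the false discovery rate was under 1%). HXK1 lies above 0 in each strain without oxygen, and in aerobic 1-butanol WA lies at 1.37 while PAP and IL01 lie at -1.93 and -2.66.

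WA in anaerobic ethanol, treated apart, had 1176 and 1437 RPKM of HXK1, 872 and 838 of HXK2, 362 and 421 of GLK1 and 267 and 383 of EMI2. In anaerobic YPD the same strain had 176 and 149.6 RPKM of HXK1, 855 and 814 of HXK2, 87.1 and 83.2 of GLK1 and 117 and 108 of EMI2. The HXK1, GLK1 and EMI2 levels were the highest that WA reached in any of its 8 groups. HXK1 rose by 3.00 (SE 0.27, adjusted p = 1.10e-07), GLK1 by 2.20 (SE 0.36, adjusted p = 0.000201) and EMI2 by 1.51 (SE 0.26, adjusted p = 0.000319), and HXK2 had a log2 change of 0.04 (95% interval -0.92 to 0.99, adjusted p = 0.976). Of 5693 genes, 8.26% were called.

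The alcohols were then set against each other, in fits of all media of an oxygen condition. Aerobically, 1-butanol had less EMI2 than isobutanol, with a log2 difference of -1.27 (SE 0.15, adjusted p = 3.28e-05), the only member called where 2.9% of 5615 genes were. HXK1 differed by -0.93 (95% interval -1.46 to -0.40, adjusted p = 0.0384), HXK2 by -0.26 (95% interval -0.39 to -0.13, adjusted p = 0.0195) and GLK1 by -0.06 (95% interval -0.49 to 0.37, adjusted p = 0.989). With a replicate block per strain HXK1 (adjusted p = 0.00031) and HXK2 (0.008) were called as well. Anaerobically none of the 4 was called between these isomers, as for all but 1.04% of 5692 genes, and the intervals were wide: HXK1 0.60 (95% interval 0.27 to 0.93, adjusted p = 0.0523), HXK2 -0.56 (95% interval -1.12 to 0.00, adjusted p = 0.397), GLK1 0.52 (95% interval 0.08 to 0.95, adjusted p = 0.264) and EMI2 -0.11 (95% interval -0.42 to 0.20, adjusted p = 0.878). The mean of the butanols against ethanol, aerobically, differed by -3.22 (SE 0.22, adjusted p = 1.16e-08) for HXK1, -1.16 (SE 0.13, adjusted p = 3.57e-06) for EMI2, 0.47 (SE 0.05, adjusted p = 6.09e-06) for HXK2 and -0.10 (95% interval -0.47 to 0.28, adjusted p = 0.775) for GLK1, so that HXK1 and EMI2 were lower and HXK2 higher in the butanols, with 13.6% of genes called. Anaerobically, over PAP and IL01, the differences were 0.35 (95% interval -0.01 to 0.70, adjusted p = 0.137) for HXK1, -0.37 (95% interval -0.96 to 0.23, adjusted p = 0.36) for HXK2, 0.29 (95% interval -0.17 to 0.75, adjusted p = 0.352) for GLK1 and -0.10 (95% interval -0.43 to 0.23, adjusted p = 0.684) for EMI2, none called beside 14.4% of genes. Doses differed between the alcohols, so these are comparisons of the media as used.

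Whether an alcohol acted differently without oxygen was tested as an interaction of alcohol and oxygen over the strains. For 1-butanol, the change against YPD was 2.22 anaerobically and -1.07 aerobically for HXK1, a difference of 3.30 (SE 0.25, adjusted p = 8.20e-08). The difference for EMI2 was 1.41 (SE 0.21, adjusted p = 0.000133), and for HXK2 -0.998 (SE 0.23, adjusted p = 0.00659), with 6.37% of 5681 genes called. GLK1 differed by 0.92 (95% interval 0.36 to 1.47, adjusted p = 0.0308), not past the threshold but called with a replicate block per strain (adjusted p = 0.00952). The HXK1 interaction held in each of 37 alternatives, that of EMI2 in all but the alternative without IL01, where it was 0.86 (adjusted p = 0.0483), and that of HXK2 was lost in 20 of 37, where its adjusted p ran up to 0.0454. For isobutanol HXK1 alone was called, at 1.77 (SE 0.30, adjusted p = 0.0015) beside 3.06% of genes. Its anaerobic and aerobic changes were 2.75 and -1.66 in PAP and 1.68 and -0.68 in IL01. WA went the other way, with 0.44 anaerobically and 1.89 aerobically. HXK2 was at -0.70 (95% interval -1.45 to 0.06, adjusted p = 0.307), GLK1 at 0.34 (95% interval -0.26 to 0.95, adjusted p = 0.572) and EMI2 at 0.24 (95% interval -0.17 to 0.65, adjusted p = 0.556). For ethanol none of the 4 was called beside 1.88% of genes, with HXK1 at -0.29 (95% interval -1.01 to 0.43, adjusted p = 0.566) and GLK1 at 0.81 (95% interval 0.25 to 1.36, adjusted p = 0.067).

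Strains were set against the mean of the 3 strains. In aerobic YPD no member was called for WA, PAP or IL01, where 2.29%, 2.18% and 1.87% of 5630 genes were. In anaerobic YPD IL01 had more HXK1 than the mean, by 1.47 (SE 0.19, adjusted p = 0.000936), and more EMI2, by 0.90 (SE 0.14, adjusted p = 0.00337), while PAP had less HXK1, with a difference of -1.11 (SE 0.19, adjusted p = 0.0041). These calls compare with 3.68% of genes for WA, 4.85% for PAP and 3.04% for IL01. They depended on the fit: 5 member values were called without the replicate block and 0 when libraries with under 60% of reads in genes were left out.

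In fits of all media of an oxygen condition more member values were called between strains. With oxygen WA had more HXK1 than the mean of strains, by 1.65 (SE 0.13, adjusted p = 1.68e-08), more GLK1, by 0.53, and more EMI2, by 0.63, and less HXK2, at -0.32 (4 of 4 members called, 42.3% of 5615 genes). PAP had less HXK1, at -1.28 (SE 0.13, adjusted p = 5.61e-07), less EMI2 (-0.56) and more HXK2 (0.23), beside 26.6% of genes, and IL01 had less GLK1, at -0.46 (SE 0.10, adjusted p = 0.00193), beside 26%. Without oxygen, over 1-butanol, isobutanol and YPD, IL01 lay above and WA below the mean. IL01 had more HXK1, at 1.37 (SE 0.09, adjusted p = 9.55e-10), EMI2 (0.90) and GLK1 (0.58) than the mean, beside 25% of genes. WA had less HXK1, at -0.99 (SE 0.09, adjusted p = 7.53e-08), EMI2 (-0.63) and GLK1 (-0.61), beside 35.1%, and PAP had less HXK1, at -0.38 (SE 0.09, adjusted p = 0.00384), beside 18%. HXK2 was called for no strain without oxygen. With a replicate block per strain HXK1 of IL01 with oxygen (adjusted p = 0.000339) and EMI2 of PAP without oxygen (0.00671) were called as well. The contrast between the oxygen conditions in the order of the strains was not tested over all media.

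Tests of whether a response differed among the strains called no member in any of 7 fits (limma, joint test over strains). The response to oxygen was tested in this way in YPD only. Whether it differed among the strains in 1-butanol, isobutanol or ethanol was not tested. The share of all genes called was 1.19% for oxygen in YPD, 2.32%, 0.404% and 0.284% for 1-butanol, isobutanol and ethanol without oxygen, and 0.161%, 0.214% and 0% for those alcohols with oxygen. At an unadjusted p under 0.05 the numbers of genes were 677 for oxygen in YPD, 681, 534 and 655 for the alcohols without oxygen and 516, 391 and 740 for the alcohols with oxygen. HXK1 came nearest of the members in aerobic 1-butanol (adjusted p = 0.0204), anaerobic 1-butanol (0.0211), anaerobic isobutanol (0.0263) and oxygen in YPD (0.0401). These calls depended on the fit. With a replicate block per strain HXK1 was called for aerobic 1-butanol (adjusted p = 0.000895), aerobic isobutanol (0.00321), anaerobic 1-butanol (0.00206) and anaerobic isobutanol (6.42e-05), and EMI2 for aerobic 1-butanol (0.00722). In a single fit of all 48 libraries HXK1 was called for aerobic 1-butanol (adjusted p = 1.23e-05), aerobic isobutanol (0.00012) and oxygen in YPD (0.00405). It was also called for aerobic 1-butanol under quantile normalization (0.00291) and with libraries shifted to 1 median (0.00292), and for anaerobic 1-butanol with a mean RPKM of at least 10 (0.00802) and with voom weights (0.0095).

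The paralogs of each pair were compared within the pair as well. GLK1 made up 81.7% ± 5.08 of GLK1 plus EMI2 in aerobic 1-butanol and 53.4% ± 10.9 in aerobic YPD. Without oxygen it made up 70.6% ± 7.32 in 1-butanol, 61.2% ± 6.89 in isobutanol and 46.2% ± 4.52 in YPD. Each of these 3 differences from YPD had an exact permutation p of 0.00926 (adjusted p = 0.0206 over 20 pair tests, n = 6). With oxygen the GLK1 part in isobutanol was 65.9% ± 11.9, against 53.4% ± 10.9 in YPD (exact permutation p = 0.0463, adjusted p = 0.0794, n = 6). HXK1 made up 66.8% ± 15.3 of HXK1 plus HXK2 in anaerobic 1-butanol and 1.74% ± 2.40 in aerobic 1-butanol (exact permutation p = 0.00926, adjusted p = 0.0206, n = 6). In anaerobic isobutanol it made up 47.9% ± 25.3, against 2.33% ± 2.95 in aerobic isobutanol, and in anaerobic YPD 20.7% ± 13.3, against 1.22% ± 0.523 in aerobic YPD (same exact permutation p and adjusted p, n = 6). In anaerobic ethanol, over PAP and IL01, HXK1 made up 57.9% ± 21.6 and GLK1 59.0% ± 8.08 of its pair (n = 4). In aerobic ethanol the GLK1 part was 58.9% ± 9.61 (n = 6). HXK1 was the larger part of its pair, as a mean, in anaerobic 1-butanol and, over PAP and IL01, in anaerobic ethanol. HXK2 was the larger part, as a mean, in anaerobic isobutanol and YPD. The strains did not all follow these means. In anaerobic ethanol HXK1 and HXK2 averaged 465 and 716 RPKM in PAP but 2069 and 628 RPKM in IL01. In anaerobic isobutanol they averaged 226 and 670 (WA), 652 and 883 (PAP) but 1854 and 631 (IL01) RPKM. WA in anaerobic 1-butanol was about even, at 476 and 471 RPKM. GLK1 was the larger part of its pair, as a mean, in each alcohol under both oxygen conditions and in aerobic YPD, but not in anaerobic YPD.

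Over the 23 group means without WA in anaerobic ethanol, HXK1, GLK1 and EMI2 varied together and HXK2 correlated negatively with each of them. Pearson correlations of log2 RPKM were 0.955 for HXK1 with EMI2, 0.923 for GLK1 with EMI2 and 0.919 for HXK1 with GLK1, and -0.78 for HXK1 with HXK2. Within the 12 aerobic group means the same pairs gave 0.876, 0.415, 0.544 and -0.809, and within the 11 anaerobic ones 0.831, 0.711, 0.958 and -0.661. HXK2 with GLK1 gave -0.718 over all groups, -0.519 aerobically and -0.68 anaerobically, and HXK2 with EMI2 gave -0.634 over all groups, -0.525 aerobically and -0.271 anaerobically. These are descriptions across groups that share strains, media and days. Among 4493 genes compared, the profile most like HXK1 was that of YFR052C-A (r = 0.993), a reading frame for which the annotation used here has no entry and whose RPKM was a median 9.94% of that of HXK1 in anaerobic and 10.5% in aerobic libraries; whether it shares reads with HXK1 could not be tested by position. It was followed by UGP1 (UDP-glucose pyrophosphorylase, r = 0.966) and OCH1 (a mannosyltransferase of the Golgi, r = 0.964). The genes most like GLK1 were GRE3 (an aldose reductase, 0.979), YBR053C (0.976) and IKS1 (0.976). Those most like EMI2 were GPD1 (glycerol-3-phosphate dehydrogenase, 0.964), GSY1 (glycogen synthase, 0.964) and GRE3 (0.959). HXK2 had weaker matches, GNP1 (a glutamine permease, 0.871), TIF35 (a translation initiation factor subunit, 0.848) and DIP5 (a dicarboxylic amino acid permease, 0.848).

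Other genes around glucose phosphorylation were counted in 5 lists. Of the Msn2/Msn4-type stress genes, which general stress factors switch on, 16 of 17 tested rose in anaerobic 1-butanol, 14 of 18 in isobutanol, 15 of 16 in ethanol and 14 of 16 in YPD, and 0 fell. The medians of the list were 2.30, 1.82, 2.20 and 1.82 in these media on the log2 scale, beside the medians of all genes given above, and the shares called compare with the 39.3 to 58.7% of all genes called in these fits. GPH1 (glycogen phosphorylase) rose by 7.32 in 1-butanol and 3.42 in YPD, and TFS1 (an inhibitor of carboxypeptidase Y) by 5.28 and 4.66. GPH1 was very low with oxygen, at a median of 0.511 RPKM in 1-butanol and 0.934 RPKM in YPD. It passed the filter through its anaerobic level, at medians of 79.3 and 8.25 RPKM, so the size of its rise is uncertain. Against YPD, the numbers of these genes that rose were 14 of 17 in 1-butanol, 12 of 17 in isobutanol and 7 of 17 in ethanol when oxygen was absent, where 27.3%, 13.9% and 3.7% of all genes were called. When it was present they were 4 of 16, 4 of 17 and 5 of 17, beside 10.6%, 10.4% and 6.91% of all genes, and 0 of the list fell in any of the 6 comparisons. HSP26 rose by 4.30 in anaerobic 1-butanol and 5.46 in anaerobic ethanol.

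Of 10 genes that use glucose-6-phosphate or act next to it, 5 rose and 1 fell without oxygen in 1-butanol, 5 and 0 in isobutanol, 6 and 1 in ethanol, and 5 and 1 in YPD. In 1-butanol and isobutanol these counts were near the share of all genes called, 58.7% and 48.8%, and the shares in ethanol and YPD were 55.3% and 39.3%. PGM2, the main phosphoglucomutase, rose by 5.22 in 1-butanol and 1.66 in YPD, and TPS1, trehalose-6-phosphate synthase, by 2.88 and 1.45. Against YPD without oxygen, 5 of 10 rose in 1-butanol, 2 in isobutanol and 2 in ethanol, and 0 fell. Against YPD with oxygen, 1, 0 and 1 rose and 0, 0 and 2 fell in 1-butanol, isobutanol and ethanol. Of all genes, 27.3%, 13.9% and 3.7% were called in the anaerobic and 10.6%, 10.4% and 6.91% in the aerobic fits against YPD. The hexokinase-like YLR446W was in this list and rose by 1.63 in anaerobic 1-butanol.

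Among 23 genes of glucose signalling and repression, HXT1 and MTH1 were called against YPD in all 3 anaerobic alcohols. HXT1, the low-affinity transporter induced by high glucose, had medians of 0.839 RPKM in 1-butanol and 1.50 RPKM in isobutanol over the 6 anaerobic libraries of each, against 26.2 RPKM in YPD. Over the 4 libraries of PAP and IL01 its median was 0.433 RPKM in anaerobic ethanol, against 17.3 RPKM in anaerobic YPD. That YPD median falls between the strains. IL01 stood at 33.0 and 52.5 RPKM, and both PAP libraries lay below the median, the lowest at 1.08 RPKM. The pooled YPD levels and falls of HXT1 therefore hide a difference between strains in YPD itself. It fell, with fitted log2 changes of -3.82 in 1-butanol, -3.05 in isobutanol and, over PAP and IL01, -4.69 in ethanol. MTH1, a negative regulator of glucose-transporter genes, rose by 3.90, 4.07 and 2.85 in the same comparisons. The lowest anaerobic libraries held 0.271 RPKM of HXT1 in 1-butanol and 0.054 RPKM in ethanol, and 0.164 RPKM of MTH1 in YPD. The sizes of these changes are therefore uncertain. HXT1 also fell in aerobic ethanol, with a change of -4.47, where MTH1 rose by 2.54. In all, 4 rose and 3 fell in anaerobic 1-butanol, 3 and 2 in anaerobic isobutanol, and 2 and 2 in anaerobic ethanol. With oxygen the counts were 4 and 3, 2 and 3, and 3 and 2. In the same order, the shares of all genes called were 27.3%, 13.9% and 3.7% without oxygen and 10.6%, 10.4% and 6.91% with it. Without oxygen against with oxygen, 10 rose and 3 fell in 1-butanol, 10 and 2 in isobutanol, 6 and 3 in ethanol, and 6 and 3 in YPD. Of all genes 58.7%, 48.8%, 55.3% and 39.3% were called in these fits, and the shares of the list lay near these or below them. In WA in anaerobic ethanol HXT1 fell, at -7.13, and MTH1 rose by 6.12. HXT1 was at only 0.132 and 0.312 RPKM in these ethanol libraries. MTH1 was at only 0.164 and 0.984 RPKM in WA in anaerobic YPD. The sizes of both changes are therefore uncertain.

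Of 14 glucose-repressed genes, only 8 to 11 passed the filter on low levels in these fits. The filter takes the mean over a whole fit, so a gene could pass on its level in a single condition. Without oxygen 5 of 8 rose and 1 fell in 1-butanol, 5 of 8 rose and 0 fell in isobutanol, 4 of 11 rose and 1 fell in ethanol, and 3 of 8 rose and 1 fell in YPD. The shares of all genes called were 58.7%, 48.8%, 55.3% and 39.3% in these media. ACS1, an acetyl-CoA synthetase, rose by 2.66 in 1-butanol and 1.68 in YPD. Against YPD, 4 of 8 rose and 1 fell in anaerobic 1-butanol, 5 of 8 rose in anaerobic isobutanol and 2 of 10 in anaerobic ethanol. With oxygen, 0 rose and 1 fell in 1-butanol, 1 rose and 0 fell in isobutanol, and 3 rose and 0 fell in ethanol. These counts stand beside 27.3%, 13.9% and 3.7% of all genes called without oxygen and 10.6%, 10.4% and 6.91% with it. Of 6 regulators of glycolytic genes, TYE7 rose without oxygen in all 4 media, by 2.18 in 1-butanol, 1.69 in isobutanol, 2.15 in ethanol and 1.83 in YPD, and GCR1 rose in ethanol alone, by 0.49; the others were not called for oxygen.

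Because HXK1, GLK1 and EMI2 varied together, the sequences upstream of the 4 start codons were searched, in the S288c reference, for the stress response element STRE (AGGGG) of Msn2 and Msn4, for GC boxes of Mig1 (searched as GCGGGG or as GTGGGG, and further as CCGGGG or as CTGGGG) and for the core ATTGTTCTC of the aerobic repressor Rox1, on both strands. Within 600 bases STRE occurred 5 times before HXK1, 0 times before HXK2, 3 times before GLK1 and 2 times before EMI2. Of 5999 genes, 39.67% had at least 1, 10.72% at least 2, 2.434% at least 3 and 0.333% at least 5. Mig1 boxes numbered 2 before HXK1 and 1 before each of the other members (27.84% of genes had at least 1 and 5.234% at least 2), and the Rox1 core occurred once, before HXK1 (1.3% of genes). Mig1 boxes and STRE can overlap, since both hold a run of G. The stretch of 450 to 151 bases before each start codon, from RefSeq for R64, is shown with STRE in capitals; 23.38% of genes hold STRE in this window.
HXK1 (chrVI:255200-255499, minus strand): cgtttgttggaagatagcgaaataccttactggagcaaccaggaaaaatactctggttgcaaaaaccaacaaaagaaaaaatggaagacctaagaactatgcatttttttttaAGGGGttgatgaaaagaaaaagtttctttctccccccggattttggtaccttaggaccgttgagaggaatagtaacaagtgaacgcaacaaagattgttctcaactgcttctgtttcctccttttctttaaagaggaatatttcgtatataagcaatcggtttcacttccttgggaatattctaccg
HXK2 (chrVII:23485-23784, plus strand): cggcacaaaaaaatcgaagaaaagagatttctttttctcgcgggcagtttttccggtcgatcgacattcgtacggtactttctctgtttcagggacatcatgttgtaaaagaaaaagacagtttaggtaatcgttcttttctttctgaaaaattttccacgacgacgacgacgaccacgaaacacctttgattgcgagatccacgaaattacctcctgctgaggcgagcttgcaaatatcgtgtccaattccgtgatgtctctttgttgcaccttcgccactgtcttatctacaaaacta
GLK1 (chrIII:50388-50687, plus strand): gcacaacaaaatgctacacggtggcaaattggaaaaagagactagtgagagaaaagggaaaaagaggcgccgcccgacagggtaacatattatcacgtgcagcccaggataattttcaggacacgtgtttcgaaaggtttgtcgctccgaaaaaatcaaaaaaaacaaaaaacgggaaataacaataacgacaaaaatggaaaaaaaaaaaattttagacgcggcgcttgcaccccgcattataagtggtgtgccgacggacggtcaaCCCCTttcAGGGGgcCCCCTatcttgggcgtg
EMI2 (chrIV:1476627-1476926, minus strand): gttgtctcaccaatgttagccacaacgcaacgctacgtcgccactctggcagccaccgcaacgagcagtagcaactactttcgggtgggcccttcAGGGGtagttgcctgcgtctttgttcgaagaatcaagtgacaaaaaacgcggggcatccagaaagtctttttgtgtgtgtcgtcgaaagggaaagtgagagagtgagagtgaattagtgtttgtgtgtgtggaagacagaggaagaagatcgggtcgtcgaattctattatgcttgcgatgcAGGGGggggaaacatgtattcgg
GLK1 carries 3 STRE matches within 20 bases, EMI2 2 matches far apart and HXK1 1 match in this window, its other 4 lying further upstream. A match is a description of letters in the reference and not a site.

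**Figure D5:**
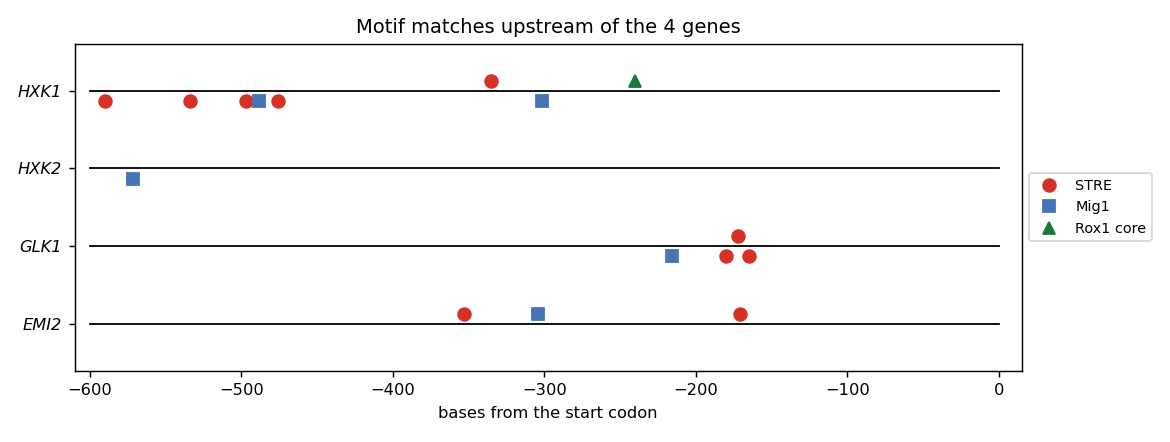
Positions of STRE, Mig1 and Rox1-core matches (symbols) in the 600 bases before the start codon (horizontal, bases) of the 4 genes (rows). HXK1 holds 5 STRE matches and the only Rox1 core, and HXK2 holds a single Mig1 match.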

How the data were processed

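RNA was depleted of rRNA and sequenced as single-end reads of 100 bases from stranded libraries. The authors mapped reads to S288c R64 with bwa mem, counted them per gene with HTSeq (strand setting not given in the sources used here) and deposited log2 RPKM, with genes without reads listed at 0. On these log2 values limma 3.58.1 (R 4.3.3, empirical Bayes with trend, no pseudocount) was fitted to genes whose RPKM averaged 1 or more in a fit, with groups of strain and condition and the replicate number as a block within each oxygen condition, because the authors collected replicates on different days and paired them. Among libraries with the same number, deviations from the group mean had a median correlation of 0.08 aerobically and 0.07 anaerobically, and of 0.187 and 0.113 within a strain. Calls were made at a Benjamini-Hochberg false discovery rate of 1% over all genes of a fit. Shares of summed RPKM were compared with two-sided exact permutation tests within strain. Reads recovered from RPKM and RefSeq lengths were whole (within 0.01 of a read, or 0.1 for well covered genes) for 6012 of 6022 genes. Fits were tested on simulated data. P-values measure the spread between cultures of 1 isolate a strain.

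Members and lists were chosen with earlier results of these data known. Beside the 4 genes, values are given for at most 2 called genes a list and comparison, those with the largest change. They are also given for the 3 genes most correlated with each member among those averaging 10 RPKM or more. HSP26, HXT6, HSP12, SUC2 and MTH1 in IL01, and YFR052C-A and YCL042W beside their neighbours, were added after their values were seen. Alternatives were no block, a block per strain, quantile and median scaling, no trend, log2(RPKM + 1), other filters, voom weights, 1 fit of all 48 libraries, WA in anaerobic ethanol included, each library left out and, chosen after seeing the data, scaling to reads in genes, IL01 left out and libraries under 60% of reads in genes left out. A fit with a library left out keeps 1 library in that group, so the spread of that group does not enter its p-values.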

Additional observations from a re-analysis of the deposited data

Results flagged for a closer look

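The response to 1-butanol differed between the oxygen conditions for HXK1, HXK2 and EMI2, and the response to isobutanol for HXK1, by a test of the interaction itself (limma). For 1-butanol the anaerobic change minus the aerobic change, on the log2 scale, was 3.296 for HXK1, -0.9983 for HXK2 and 1.41 for EMI2. For isobutanol it was 1.77 for HXK1. These values are means over the strains, and WA did not share them for HXK1 and EMI2. In 1-butanol the anaerobic and aerobic changes of WA were 1.51 and 1.37 for HXK1 and -0.34 and -0.25 for EMI2. In isobutanol those of HXK1 in WA were 0.44 and 1.89. HXK1 in aerobic 1-butanol rested on 18 to 46 reads a library in PAP and IL01. The HXK2 value was lost in 20 of 37 alternatives.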

How the results depend on the processing

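No called member value reversed under any alternative run. Of 148 member values 54 were called, and the alternatives that keep all of them lost between 0 and 8 and gained between 0 and 12 calls. A replicate block per strain, run on 104 values, lost 0 and gained 15. The values that changed sign were all uncalled as reported. In oxygen in YPD, HXK2 turned to 0.080 under quantile normalization. With libraries shifted to 1 median, HXK2 in aerobic isobutanol turned to -0.086 and EMI2 in anaerobic 1-butanol to -0.080. In WA in anaerobic ethanol HXK2 turned to -0.057 under quantile normalization and -0.018 when scaled to reads in genes. For IL01 in aerobic YPD, HXK2 turned to -0.0040 under quantile normalization, and GLK1 to 0.117 under it, 0.116 with 1 median and 0.0086 when scaled to reads in genes. For IL01 in anaerobic YPD, HXK2 turned to -0.13, -0.115 and -0.064 under these 3 scalings. Over the anaerobic media, HXK2 of WA turned to 0.073, 0.135 and 0.029 under them and to 0.041 with WA in anaerobic ethanol included. GLK1 of PAP turned to -0.0091 under quantile normalization, -0.018 with 1 median, -0.179 with WA included and -0.087 without libraries under 60% of reads in genes. With WA included, the anaerobic butanols against ethanol turned to -0.44 for HXK1 (0.35 as reported) and -0.17 for GLK1. For ethanol by oxygen, HXK1 turned to 0.397 under quantile normalization and 0.080 with 1 median, and HXK2 to 0.191 with 1 median and 0.080 with WA included. Without IL01, isobutanol by oxygen turned to -0.091 for GLK1 and -0.257 for EMI2. The causes were not tested.

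Counts of called members moved as follows. Aerobic 1-butanol went to 1 (2 as reported) without a trend, with log2(RPKM + 1), without a filter and with voom weights. Aerobic isobutanol had 1 (0 as reported) with a replicate block per strain and in 1 fit of all 48 libraries, and aerobic ethanol 1 (2 as reported) without a trend. Anaerobic isobutanol had 1 (2 as reported) under quantile normalization and with 1 median. Anaerobic ethanol (2 as reported) had 4 with a replicate block per strain, 1 with 1 median, 1 without a trend and 4 without libraries under 60% of reads in genes. Aerobic 1-butanol against isobutanol (1 as reported) had 3 with a replicate block per strain and 2 with 1 median, in 1 fit of 48 libraries and scaled to reads in genes. Anaerobic butanols against ethanol had 1 (0 as reported) with WA included. Strains in anaerobic YPD (3 as reported) gave 5 with no replicate block, 1 without a trend, 5 with voom weights, 1 scaled to reads in genes and 0 without libraries under 60% of reads in genes. The tests of a difference among strains, 0 as reported, had 1 for oxygen in YPD in 1 fit of 48 libraries. For aerobic 1-butanol they had 2 with a replicate block per strain, 1 under quantile normalization, 1 with 1 median and 2 in 1 fit of 48 libraries. For aerobic isobutanol they had 1 with a replicate block per strain and 2 in 1 fit of 48 libraries. For anaerobic 1-butanol they had 1 with a replicate block per strain, with a mean RPKM of at least 10 and with voom weights, and for anaerobic isobutanol 1 with a replicate block per strain. Ethanol by oxygen had 1 (0 as reported) under quantile normalization and without libraries under 60% of reads in genes, and 1-butanol by oxygen had 1 (3 as reported) without IL01. Shares within each pair gave 10 of 20 tests past 0.05, beside 24 of 40 for shares of the 4 genes, which depend on each other. Without the replicate block 0 of 54 calls were lost and 3 gained.

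Leaving out 1 library at a time gave 922 called values, of which 61 were lost and 0 reversed. The counts ran from 1 to 3 for aerobic 1-butanol, 0 to 1 for aerobic isobutanol, 1 to 4 for aerobic ethanol, 2 to 4 for anaerobic ethanol, 1 to 3 for WA in anaerobic ethanol, 0 to 1 for anaerobic 1-butanol against isobutanol, 0 to 5 for strains in anaerobic YPD, 1 to 2 for isobutanol by oxygen and 0 to 1 for ethanol by oxygen. For differences among strains they ran from 0 to 1 for oxygen in YPD, aerobic 1-butanol, anaerobic 1-butanol and anaerobic ethanol and from 0 to 3 for anaerobic isobutanol. Uncalled values that changed sign ran from -0.353 to 0.060 (HXK1) and -0.094 to 0.067 (EMI2) in aerobic isobutanol, -0.207 to 0.277 (HXK2, WA in anaerobic ethanol), -0.232 to 0.117 (GLK1, aerobic 1-butanol against isobutanol), -0.241 to 0.026 (EMI2, the same without oxygen) and -0.258 to 0.064 (GLK1, aerobic butanols against ethanol). In aerobic YPD they ran from -0.148 to 0.139 (EMI2, WA), -0.411 to 0.468 (HXK1, IL01) and -0.213 to 0.198 (GLK1, IL01). Over the media they ran from -0.141 to 0.0053 (EMI2, IL01, aerobic) and, without oxygen, from -0.149 to 0.103 (HXK2, WA), -0.052 to 0.115 (GLK1, PAP) and -0.446 to 0.057 (HXK2, IL01). For ethanol by oxygen HXK1 ran from -0.634 to 0.054. Depth limits HXK1 most in aerobic 1-butanol, where the lowest library held 18 reads of it.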
